A study of Mus musculus with 15 samples.

Results

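Mitotic cardiomyocytes are heart muscle cells that were caught with the transcripts of late G2 and mitosis in them. They were picked from Drop-seq libraries of whole E14.5 mouse hearts. In Drop-seq, single cells are captured with barcoded beads and each captured transcript is counted once through a unique molecular identifier (UMI). A barcode was a member when 4 conditions held. It had at least 300 detected genes. At least 2% of its UMIs came from the cardiomyocyte genes Actc1, Tnnt2, Tnni1, Tnnc1, Myl4, Myl7 and Ttn. It had at least 3 UMIs in all (M) of the mitotic genes Cenpa, Ccnb2, Cdca8, Cdca3, Hmmr, Prc1, Ube2c, Cenpf, Knstrn and Top2a. It had fewer than 2 UMIs of the trabecular genes Nppb, Cited1, Gja5 and Gtsf1. Of 55152 deposited barcodes, 50899 had 300 genes, 23730 of these passed the cardiomyocyte limit, and 14292 of those were not trabecular-type and are called eligible here. Among the eligible cells 4415 were members, which is 30.9% of them, with 203 to 405 members in each library.

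The WT group held 7 libraries of Adamts19+/+ hearts, from 4 litters. The KO group held 8 libraries of hearts homozygous for a knockout allele of Adamts19, which encodes a secreted metalloprotease. KO replicates 1 to 4 carried the allele tm4a and came from 2 litters, while KO replicates 5 to 8 carried tm4b and came from 1 litter. All embryos were C57BL6/N, and the sources used here do not give the embryos per library. No litter held both genotypes, so litter and genotype cannot be told apart. All KO libraries shared a flow cell with WT replicate 5, and the other WT libraries were run on 4 other flow cells.

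WT replicates 1 to 4 stood apart in the share of members that held UMIs of other cell types. These were summed over marker lists of fibroblasts, endothelium, epicardium, mural cells and leukocytes. Between 40.1% and 54.8% of their members held 3 or more such UMIs, against 17.9% to 31.9% in the other 11 libraries. This count is not scaled for depth. Per 1000000 UMIs, each of these lists overlapped between WT replicates 1 to 4 and KO. Fibroblast markers summed to 567 to 1219 against 230.3 to 714, and endothelial markers to 137 to 371 against 68.8 to 403. The shares and gene counts between genotypes are given with and without WT replicates 1 to 4. Members gave 433894 to 1045509 UMIs per library. Scrublet, a doublet caller, marked 0.251% of the 50899 barcodes, 20 members among them. Whether it missed doublets was not tested, and no barcode was removed on its calls. Of the members, 6.82% were among the 5% of barcodes with the highest doublet score in their library, against 6.38% of eligible cells with M = 0. The 12-base cell barcodes of 7 members also occurred in another library, and 0 were shared between members.

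Cardiomyocytes of the fetal heart divide while they beat, and most leave the cell cycle after birth. At the entry into mitosis cyclin B and its kinase are active, kinetochores assemble on the centromeres and the spindle attaches to them. The anaphase-promoting complex then has securin and cyclins destroyed, and a midzone of microtubules directs the cut between the daughter cells. Many genes of this programme are transcribed in late G2 and carry CCAAT boxes, bound by NF-Y, in their promoters. Some also carry a cell cycle genes homology region (CHR), which recruits the DREAM and MuvB complexes.

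The bases just upstream of 4 of the 10 genes that define the cells are shown because they hold these elements in different numbers. Each run is the 150 bases before the RefSeq start site (GRCm38.p6), 5′ to 3′ on the gene's strand, and capitals mark motif matches on either strand. The motifs are CCAAT (read as ATTGG from the other strand), the CHR with the letters TTTGAA (its reverse is TTCAAA), and a variant of the CHR with the letters TTCGAA. None of the 4 windows overlaps an exon of the GENCODE M21 annotation.
Ccnb2, cyclin B2, chr9:70421555-70421704, minus strand: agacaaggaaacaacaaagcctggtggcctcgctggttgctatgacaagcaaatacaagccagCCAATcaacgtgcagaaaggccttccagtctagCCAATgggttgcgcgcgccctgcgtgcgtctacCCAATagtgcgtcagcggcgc
Hmmr, a spindle-associated hyaluronan receptor, chr11:40733438-40733587, minus strand: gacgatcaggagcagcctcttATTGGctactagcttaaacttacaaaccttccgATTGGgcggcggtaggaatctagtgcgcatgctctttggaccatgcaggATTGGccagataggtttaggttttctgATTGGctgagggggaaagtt
Top2a, topoisomerase II alpha, chr11:99024190-99024339, minus strand: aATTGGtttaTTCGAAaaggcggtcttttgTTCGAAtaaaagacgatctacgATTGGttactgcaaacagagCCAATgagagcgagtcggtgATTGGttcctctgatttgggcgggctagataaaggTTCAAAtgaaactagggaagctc
Cenpf, a kinetochore protein, chr1:189688087-189688236, minus strand: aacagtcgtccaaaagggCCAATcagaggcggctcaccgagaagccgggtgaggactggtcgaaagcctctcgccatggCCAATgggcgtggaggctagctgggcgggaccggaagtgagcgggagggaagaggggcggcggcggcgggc

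In the 250 bases upstream of the start, CCAAT was found on either strand in 9 of the 10 rule genes, and at least 2 times in 8. Of 27018 mouse promoters of the same length, 34.5% held it and 10.5% held it at least 2 times. For each gene the first listed start site was used. TTTGAA was found in 3 of the 10 and in 16.3% of all promoters. TTCGAA was found in 1 of the 10, Top2a, and in 1.34% of all promoters. Prc1 has a second listed start, whose window holds a TTTGAA match that is not counted here. These are matches of letters, not measured binding, and a CCAAT match can share an end base with a match of the other motifs. Knstrn, which encodes a kinetochore-associated adaptor, held none of the 3 in this window.

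The values behind the label are described here. All of them come from the genes of the rule, so they do not test the label. Members carried a median 4.97% of UMIs from the 7 cardiomyocyte genes, with the 5th and 95th percentiles at 2.64% and 8.99%. Barcodes that failed that limit had a median of 0.176%. Few barcodes lay near the limit: 1032 had 1% to 2% and 1292 had 2% to 3%, against 22438 with more, and 384 of the members were in the 2% to 3% range. The mitotic signal was spread over genes, and members held a UMI of a median 4 of the 10 rule genes. At least 3 of the 10 were seen in 87.0% of the members, and 59 members (1.34%) were members through a single gene. Ube2c, the conjugating enzyme of the anaphase-promoting complex, and Cenpa, the centromeric histone, were each seen in 61.5% of members. Top2a was seen in 55.8%, Cdca8 (borealin) in 54.5%, Cenpf in 48.2%, the midzone protein Prc1 in 47.8%, Hmmr in 46.2%, Ccnb2 in 45.0%, Cdca3 in 43.2% and Knstrn in 41.4%. The marker genes Cenpf, Hmmr, Prc1, Ube2c, Ccnb2 and Top2a are themselves part of the rule.

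The median M of members was 7 and the highest 153. At the lower edge, 797 members had M of 3, with a median 1042 UMIs and 5.17% cardiomyocyte UMIs. The 1164 eligible cells just outside, with M of 2, had a median 1026 UMIs and 5.27%. Depth moved with M: the median was 878 UMIs in the 6333 eligible cells with M = 0, 1776 in members, and 3369 in the 1693 members with M of 10 or more. For this reason each member was paired with the M = 0 cell of its own library nearest in UMIs, within 10%, which was possible for 3717 members. The paired cells had median depths of 1432 and 1383 UMIs.

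The mitotic cells were then described against these depth-matched M = 0 cardiomyocytes. The values are CPM, a gene's UMIs for every 1000000 UMIs of a library's summed cells. Ratios are on a log2 scale after adding 20 CPM to both sides and are medians over the 15 libraries. Because M chose both sets of cells, the ratios are a description and no test was made. Of 5589 genes seen in at least 5% of either set, 166 (2.97%) were over 2-fold higher in the mitotic cells and 17 (0.304%) over 2-fold lower. All 15 libraries had the higher value in mitotic cells for 409 genes (7.32%) and the lower value for 191 genes (3.42%). With no depth matching and with a 5% cardiomyocyte limit, the number of genes over 2-fold higher stayed within 1.5 times of 166.

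Of the 15 highest ratios outside the rule, 5 belonged to genes of the entry and exit list, 4 to the spindle list, 3 to the kinetochore and centromere list and 2 to the cytokinesis list. The remaining gene, Esco2, encodes a cohesin acetyltransferase and is in none of the lists. Birc5, survivin, which sits with Cdca8 in the chromosomal passenger complex, had 463 to 624 CPM in mitotic cells and 7.43 to 44.6 CPM in M = 0 cells. Its median log2 ratio was 3.48, and the 2 sets did not overlap over the libraries. The next 14 were Spc25, Mki67, Cdc20, Tpx2, Kif23, Ccnb1, Ckap2l, Nusap1, Bub1, Esco2, Tacc3, Cenpe, Ccna2 and Anln, with median ratios from 3.36 for Spc25 down to 2.86 for Anln. Spc25 is a subunit of the NDC80 complex that binds microtubules. Cdc20 activates the anaphase-promoting complex, and its mean was 269.8 CPM in mitotic and 9.04 CPM in M = 0 cells. Ccnb1, cyclin B1, had 209.6 ± 59.7 CPM (SD, n = 15) in mitotic cells and 4.89 CPM in M = 0 cells. Each of these 15 genes was higher in mitotic cells in all 15 libraries.

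**Figure D1:**
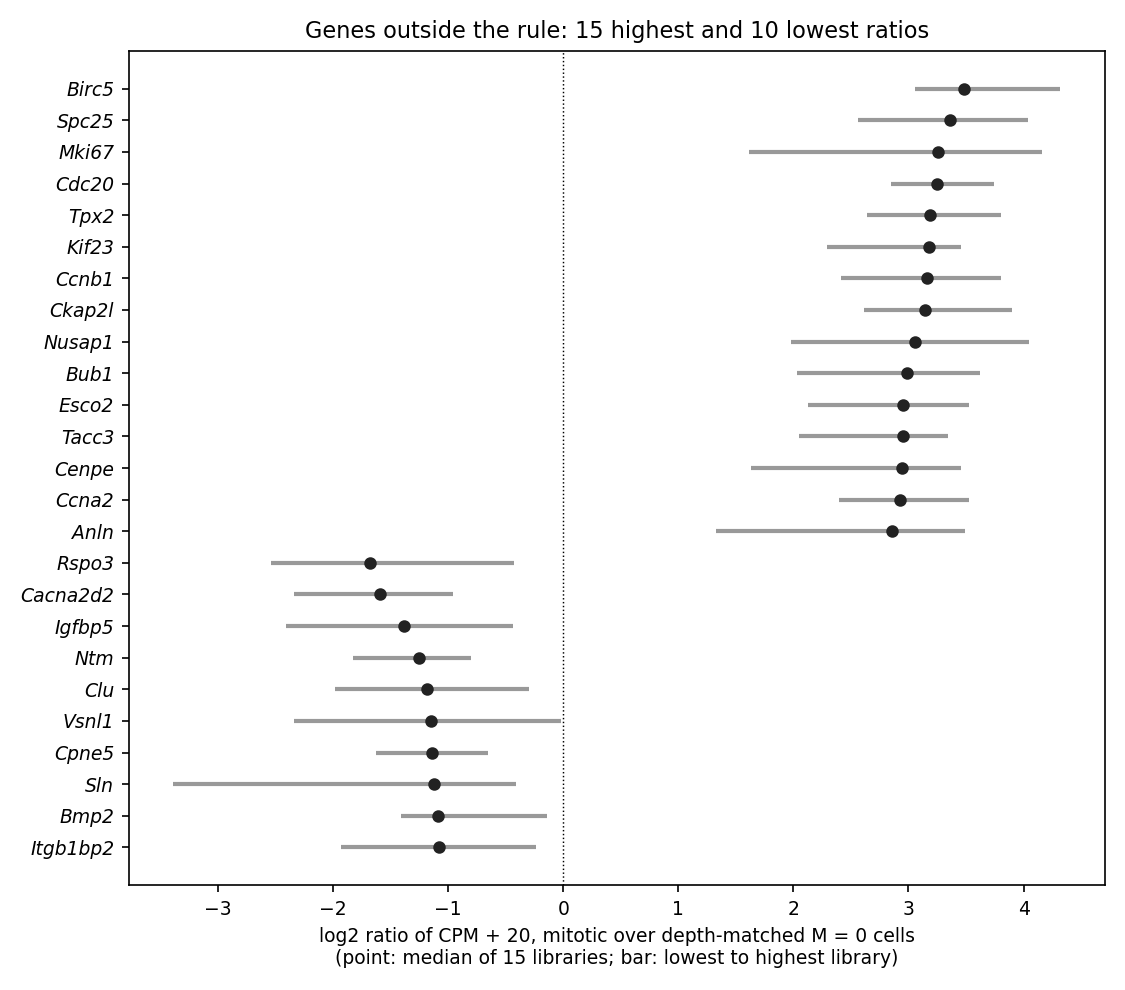
The log2 ratio of CPM + 20 in mitotic over depth-matched M = 0 cardiomyocytes is plotted for the 15 highest and the 10 lowest genes outside the rule, with points for the median of 15 libraries and bars from the lowest to the highest library. Birc5 is highest at 3.48 and Rspo3 lowest at -1.68, and no bar of the 25 genes crosses 0.

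Of all genes seen, 49.2% had a median log2 ratio above 0 and 48.9% below 0, against which the lists are read. Of the genes that drive entry into and exit from mitosis, 20 of 22 that were seen in 5% of cells were over 2-fold higher, with a list median of 1.83. The catalytic partner of cyclin B, Cdk1, had a ratio of 2.81, and Plk1, the polo-like kinase, had 2.20. Of kinetochore and centromere genes 22 of 24 passed 2-fold, of spindle genes 21 of 24, and of cytokinesis genes 11 of 12, with list medians of 1.86, 1.84 and 2.42. Aurka, the kinase of the spindle poles, had a ratio of 2.36 and the cytokinesis regulator Ect2 had 2.79. The median over all 5589 genes was 0.

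Chromosome structure and replication genes had smaller ratios. Of 20 chromosome structure genes 11 passed 2-fold and all 20 had a median ratio above 0. Smc4, a condensin subunit, was at 179 ± 28.5 CPM in M = 0 and 1059.7 ± 227 CPM in mitotic cells (SD, n = 15), a log2 ratio of 2.50. Of 29 replication genes 10 passed 2-fold and the list median was 0.76. Within that list Rrm2, the ribonucleotide reductase subunit that is limiting in S phase, was at 2.49 and the sliding clamp Pcna at 1.10. The replicative helicase subunits Mcm5 and Mcm6 were at 0.40 and 0.18. The G1 cyclins and CDK inhibitors had a median of -0.18, with 1 of 11 over 2-fold higher. Ccnd2, cyclin D2, was lower in all 15 libraries with a ratio of -0.73, at 276 ± 73 against 434 ± 82.9 CPM.

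On the side of the muscle cell, the ratios were small and mostly below 0. All 7 cardiomyocyte rule genes were below 0, from -0.12 for Tnnc1, cardiac troponin C, to -0.76 for Myl7, the atrial regulatory light chain. With a 5% cardiomyocyte limit they stayed below 0, but Actc1 was at -0.10 in place of -0.22, Tnni1 at -0.05 in place of -0.14, Tnnc1 at -0.04, Myl4 at -0.27 in place of -0.55 and Myl7 at -0.46, while Ttn was at -0.47 in place of -0.28. Of 23 sarcomere genes 18 were below 0 and the median was -0.23. Of 14 calcium-handling genes 13 were below 0, with a median of -0.35. Ryr2, the calcium release channel of the sarcoplasmic reticulum, was at -0.58, while its neighbour in the cycle Pln, phospholamban, was at -0.17. The nuclear-encoded respiratory chain genes sat at 0.02 over 53 genes.

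Atrial genes were lower in the mitotic cells, with all 8 of the list that were seen below 0 and a median of -0.68. Sln, sarcolipin, an atrial regulator of the calcium pump, was at -1.12 with 243 ± 126 against 605 ± 236 CPM (SD, n = 15). Myh6, the alpha myosin heavy chain, was at -0.70 and lower in all 15 libraries. The ventricular light chain Myl2 was at 0.07, with 8684 against 8301 CPM. Each cell's atrial UMIs (Sln, Nppa and Myh6) were also set against its ventricular UMIs (Myl2, Myh7 and Myl3). Among mitotic cells with at least 5 chamber UMIs, the share with more atrial UMIs was 5.97% to 25.8% over the libraries. In matched M = 0 cells it was 10.4% to 35.0%. The WT means were 16.1% ± 7.48 and 22.6% ± 7.11 (SD, n = 7), and the KO means 18.3% ± 5.31 and 27.8% ± 5.82 (SD, n = 8). Myl7 and Myl4 are in the cardiomyocyte limit. Without depth matching, Nppa went from 1574 CPM at M = 0 to 684 CPM at M of 10 or more. The part of Nppa in the chamber share was not tested.

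**Figure D2:**
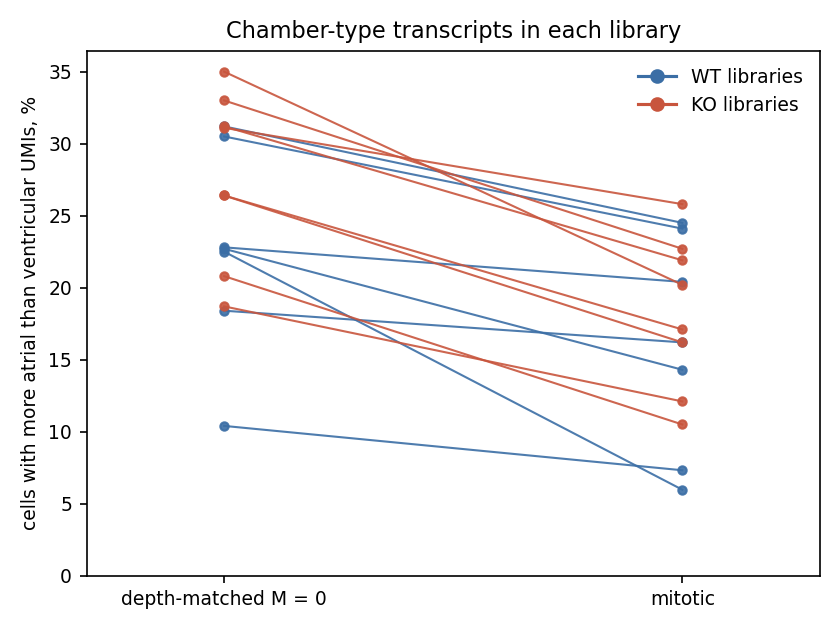
The percentage of cells with more atrial than ventricular UMIs is joined by a line within each library between depth-matched M = 0 and mitotic cardiomyocytes, with WT libraries in blue and KO libraries in red. Atrial UMIs are those of Sln, Nppa and Myh6, and ventricular UMIs those of Myl2, Myh7 and Myl3. The values run from 10.4% to 35.0% in M = 0 cells and from 5.97% to 25.8% in mitotic cells.

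The lowest ratios were those of Rspo3, a secreted amplifier of WNT signals, at -1.68, and Cacna2d2, a calcium channel subunit, at -1.59. Rspo3 was seen in 2.29% of mitotic cells and averaged 18.7 CPM there against 104 CPM in M = 0 cells. They were followed by Igfbp5, Ntm, Clu, Vsnl1, Cpne5, Sln, Bmp2 and Itgb1bp2, the last at -1.08, and all 10 were lower in all 15 libraries. Of the immediate early and heat shock genes, 17 of 21 were below 0 with a median of -0.42. The stress-induced factor Atf3 was lower in all 15 libraries at -1.04, and Fos, lower in all 15 as well, was at -0.32. Among cardiac transcription factors Tbx5 was at -0.77 and Gata4 at 0.05.

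The same genes were followed over the number of rule-gene UMIs, from M = 0 upward, without depth matching. Ccnb1 averaged 6.89 CPM at M = 0, 39.2 at M of 2, 64.3 at 3 to 4, 119 at 5 to 9, and 302 at 10 or more. The summed replication list took another course, from 1391 CPM at M = 0 to 2892 at 3 to 4 and 3298 at 5 to 9, and 3021 ± 413 (SD, n = 15) at 10 or more. The last 2 steps differ by less than their SD. Ccnd2 went from 440.3 at M = 0 to 247 CPM at 10 or more, and Cdkn1c, the CDK inhibitor p57, from 382 to 237 CPM. Myl7 went from 10742 to 5870.2 CPM, whereas Myl2 was at 8404 and 8367 CPM. M is a count with no gap at 3, so the member limit cuts through a range of counts. Whether the members form a separate type was not tested.

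**Figure D3:**
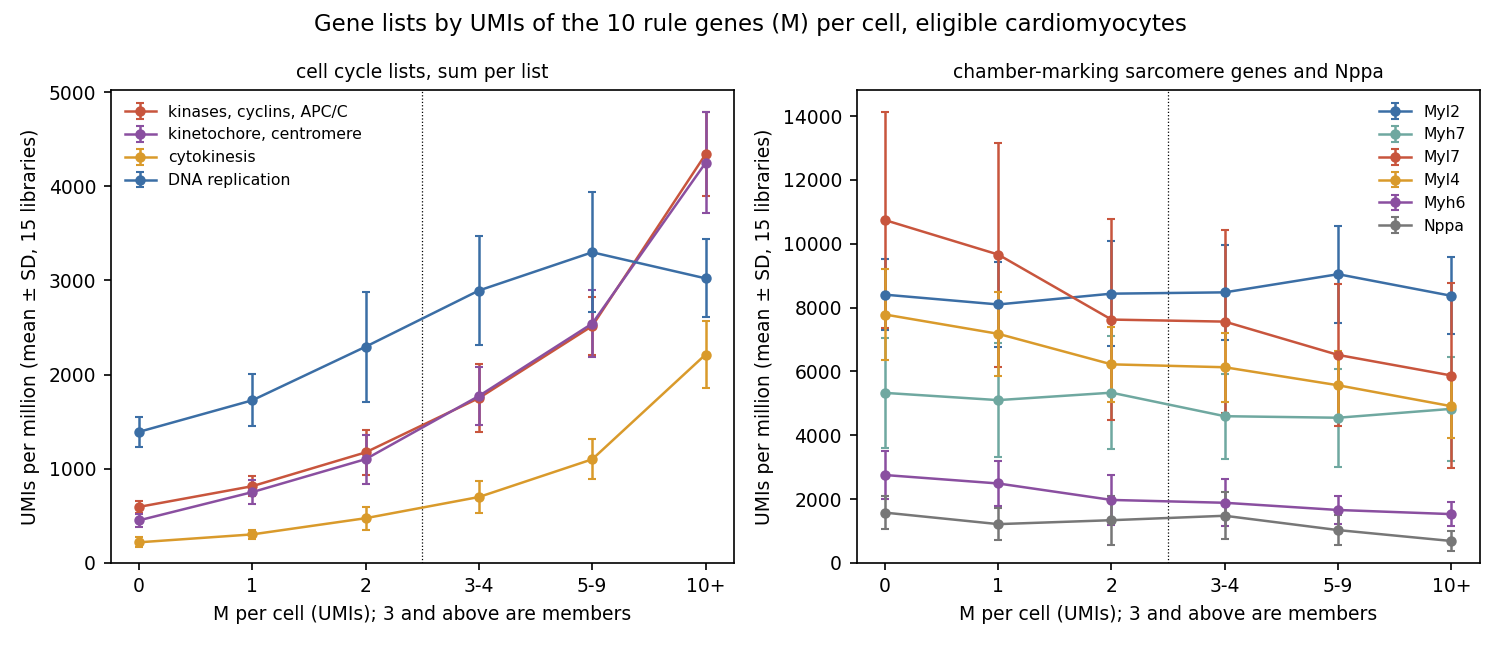
Mean CPM ± SD over 15 libraries are plotted against M, the UMIs of the 10 rule genes per cell, for 4 cell cycle lists (left, list sums) and 6 cardiomyocyte genes (right), and the dotted line marks the member limit. The kinase, kinetochore and cytokinesis lists are highest at the last step, the replication list is highest at 5 to 9 with 3298, and Myl7 goes from 10742 to 5870.2.

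Whether Adamts19 loss went with a different share of mitotic cells was compared by library. In WT the members made up a lowest 24.5%, a median 27.2% and a highest 38.8% of eligible cells, and in KO 27.4%, 31.8% and 35.7%. The KO libraries lay inside the WT range. The means were 30.6% ± 5.51 (SD, n = 7) and 31.7% ± 2.89 (SD, n = 8), a difference of 1.14 percentage points (two-sided exact permutation test, p = 0.611, adjusted over the 5 comparisons of shares 0.764). Without WT replicates 1 to 4 the difference was 3.65 (exact permutation p = 0.158), with at least 500 genes 2.86 (p = 0.171) and with M of at least 5 it was 2.37 (p = 0.167). Over the eligible cells, the 10 rule genes summed to 2083 ± 317 CPM in WT and 2327 ± 194 CPM in KO, a difference of 244 (exact permutation p = 0.0901, adjusted 0.15). Without WT replicate 5 that difference was 319 (exact permutation p = 0.0153), and without WT replicate 7 it was 149 (p = 0.193). Without WT replicates 1 to 4 it was 279.8 (exact permutation p = 0.267).

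Since a deeper cell reaches 3 UMIs more easily, each eligible cell was also thinned to 1500 UMIs, which left out shallower cells and kept 2478 WT and 3212 KO cells. The thinned share was lowest at 24.1%, median 30.7% and highest 34.5% in WT, and 30.6%, 35.65% and 40.1% in KO. The groups overlapped, with 5 KO libraries above all WT libraries. The means were 30.7% ± 3.53 and 35.7% ± 3.72, a difference of 5.05 points (two-sided exact permutation p = 0.0202, adjusted over the 5 comparisons 0.0505), which did not pass after adjustment. The difference moved with the setting. It was 4.22 (p = 0.0606, exact permutation) when the share expected over all draws replaced 1 draw, 2.23 (p = 0.211) at 1000 UMIs and 1.39 (p = 0.507) at 2000 UMIs. With M of at least 5 it was 4.58 (exact permutation p = 0.00404). It was 7.01 (exact permutation p = 0.0485) without WT replicates 1 to 4, and 4.15 (p = 0.113) without cells that held 3 or more UMIs of other cell types. Over litters in place of libraries it was 4.33 (exact permutation p = 0.114). With 4 WT and 3 KO litters that test cannot give a p under 0.05, so it decides nothing at this limit.

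**Figure D4:**
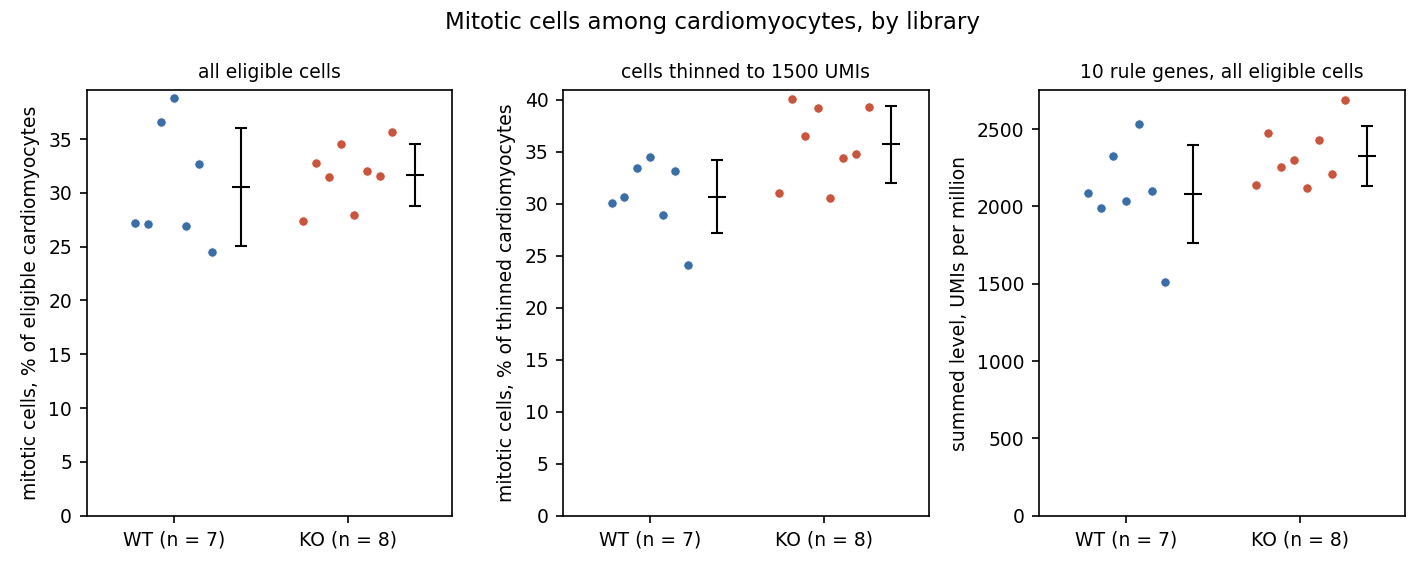
Each point is a library, with WT in blue and KO in red and the bar giving mean ± SD: mitotic cells as a percentage of eligible cardiomyocytes (left), the same after thinning to 1500 UMIs (middle), and the summed level of the 10 rule genes in eligible cells (right). The left means are 30.6% and 31.7% and the middle means 30.7% and 35.7%, and the groups overlap in all 3 panels.

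Between the alleles, the share was 31.6% ± 3.05 in the 4 tm4a libraries and 31.8% ± 3.18 in the 4 tm4b libraries, a difference of 0.246 points (two-sided exact permutation p = 0.886). The alleles came from different litters. The trabecular-type cardiomyocytes, which the rule sets aside, gave a further comparison within each library. After thinning to 1500 UMIs, 30.0% ± 2.96 of them had M of 3 or more, against 33.4% ± 4.37 of the eligible cells (SD, n = 15). The difference of -3.38 points was lower in 12 of 15 libraries (exact sign-flip permutation over libraries, p = 0.00525, adjusted 0.0262). It was -1.94 (exact permutation p = 0.129) with a 5% cardiomyocyte limit and -2.68 (p = 0.054) with M of at least 2. The median depth was 3452.5 UMIs in trabecular-type cells and 1108 in the others before thinning, and the part of depth in the result beyond the thinning was not tested. The difference itself was -2.43 in WT and -4.21 in KO (exact permutation p = 0.388). Of the barcodes that failed the cardiomyocyte limit, 23.9% ± 3.57 reached M of 3 after the same thinning. Other cells of the fetal heart divide as well, so these give no level for free RNA alone, and its part in M was not tested.

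The targeted gene was read in the members first. Adamts19 had 11.5 to 36.5 CPM in WT libraries (19.9 ± 9.09, SD, n = 7, from 111 UMIs) and 1.08 to 8.62 CPM in KO libraries (4.39 ± 2.56, SD, n = 8, from 29 UMIs), with no overlap. WT replicates 1 to 4, where more members held 3 or more UMIs of other cells, were at 15.2 to 36.5 CPM. WT replicates 5 to 7 were at 11.5 to 15.2 CPM. In all kept barcodes that were not eligible, Adamts19 was at 16.2 to 54.3 CPM in WT and 5.72 to 9.46 CPM in KO, and the part of free RNA in the members' counts was not tested. The sources used here do not say which part of the gene the alleles remove, and a 3′ tag outside it checks nothing. The LacZ feature had 0 UMIs in WT members, which allows up to 0.602 CPM over the group, and 3.83 to 62.8 CPM in KO members. This limit covers counting error only. Both features fell below the count filter of the fit between genotypes in members. In the model with both cell sets, the KO effect on Adamts19 differed between mitotic and M = 0 cells by -0.26 (SE 0.53, edgeR adjusted p = 0.998).

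In the fit across all genes of the summed members (edgeR's quasi-likelihood test, Benjamini-Hochberg adjusted), 6 of 7560 genes passed an adjusted p of 0.05 between KO and WT, which is 0.0794% of those tested. An unadjusted p under 0.05 was reached by 1023 genes (13.5%). Higher in KO were Gadd45b, a growth arrest and DNA damage-inducible gene, Hspb8, a small heat shock protein, and Hspa5, the chaperone of the endoplasmic reticulum. Lower were Hint2, a mitochondrial histidine triad protein, Pgls, of the pentose phosphate pathway, and the predicted gene Gm10076. None of the 6 was in the 27 gene lists used here, so 0 members of any list were called. Levels below are CPM scaled by TMM.

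Gadd45b was at a lowest 86.6, median 109 and highest 143 CPM in WT and 170, 190 and 266 CPM in KO. No KO library was as low as any WT library. Its log2 fold change was 0.78 (SE 0.14, edgeR adjusted p = 0.0136), and the call was kept in each of the 15 fits that left out 1 library. Hspb8 was at 79.6, 104 and 138 CPM in WT and 158, 173 and 182 CPM in KO. Its groups did not overlap either, and the log2 fold change was 0.70 (SE 0.12, edgeR adjusted p = 0.0136), kept in 14 of 15 such fits. Hspa5 was at 833, 862 and 999 CPM in WT and 1062, 1474 and 2120 CPM in KO. Again no library overlapped, with a log2 fold change of 0.74 (SE 0.13, edgeR adjusted p = 0.0164), kept in 12 of 15. In all, 21 genes (0.278%) had groups that did not overlap.

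Hint2 was at 200, 251 and 292 CPM in WT and 117, 170 and 180 CPM in KO. Every KO library was below every WT library, and the log2 fold change was -0.60 (SE 0.11, edgeR adjusted p = 0.0306). Pgls was at 115, 155 and 215 CPM in WT and 53.7, 87.7 and 121 CPM in KO, with some overlap and a log2 fold change of -0.88 (SE 0.17, edgeR adjusted p = 0.0315). Leaving out 1 library in turn, the calls were kept in 6 of 15 fits for Hint2 and 7 of 15 for Pgls. Gm10076 was at 86.9, 147 and 341 CPM in WT and 31.1, 59.1 and 93.2 CPM in KO. Its groups overlapped, the log2 fold change was -1.52 (SE 0.25, edgeR adjusted p = 0.0136), and the call was kept in all 15 such fits. A predicted gene can share reads with near-identical copies, so its counts are uncertain.

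**Figure D5:**
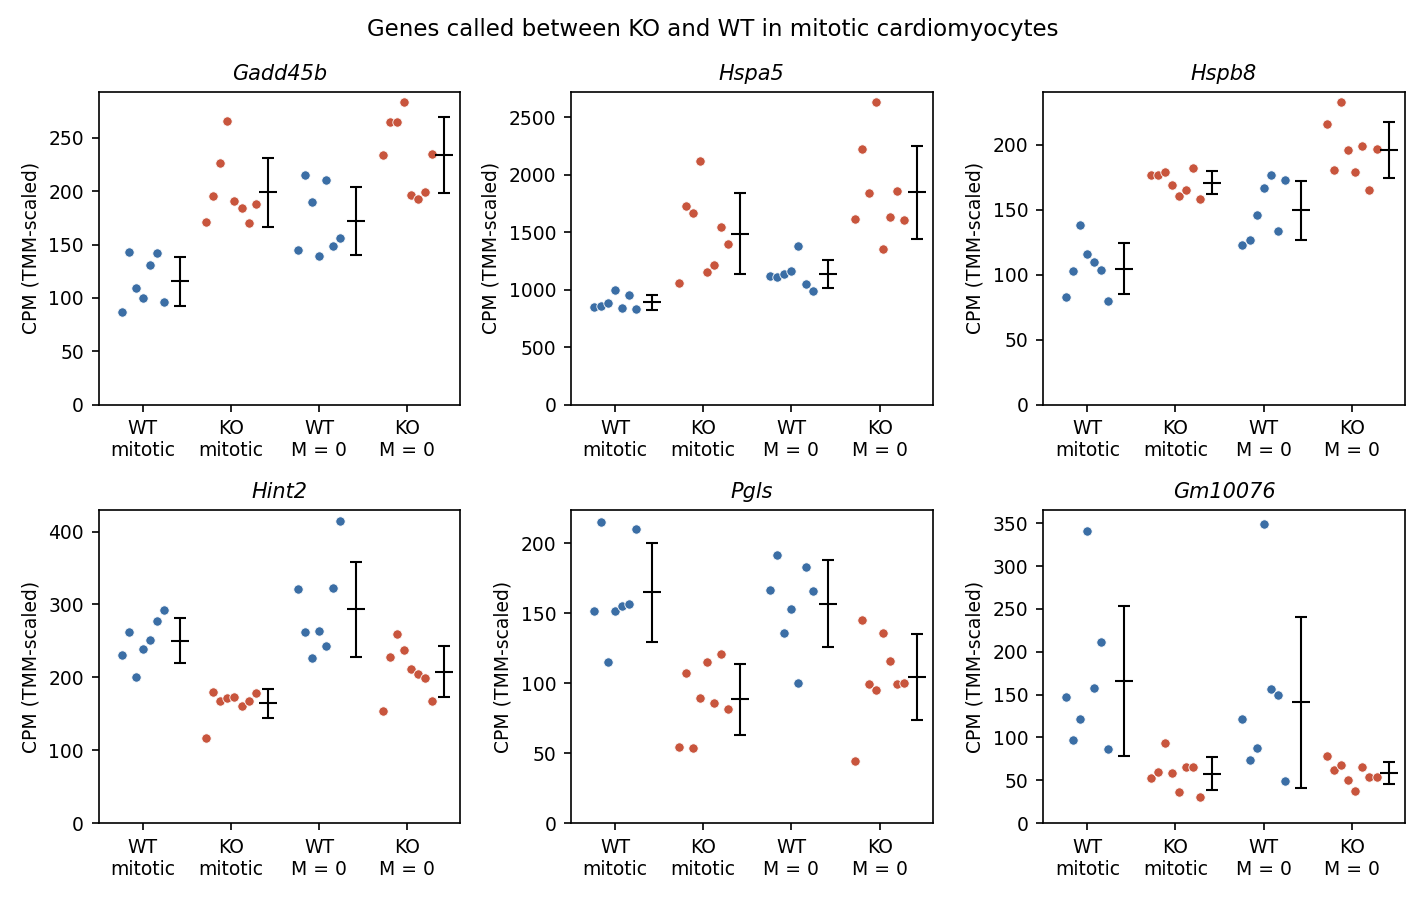
CPM scaled by TMM are plotted by library for the 6 genes called between KO and WT in mitotic cardiomyocytes, in mitotic and in depth-matched M = 0 cells, with WT in blue, KO in red and bars for mean ± SD. In mitotic cells the groups of Gadd45b, Hspa5, Hspb8 and Hint2 do not overlap, and Hspa5 runs from 833 to 999 in WT and from 1062 to 2120 in KO.

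The flow cell could be separated from genotype only through WT replicate 5, whose values were among those that chose the 6 genes. When the model held a term for flow cell, 0 genes passed, with a log2 fold change of 0.60 (SE 0.30) for Gadd45b and 0.83 (SE 0.29) for Hspa5. With counts summed per litter 3 genes passed, 1 of them among the 6, Gm10076 (edgeR adjusted p = 0.00467). The rest of the 6 did not pass there: Pgls was at 0.213, Gadd45b at 0.304, Hspb8 at 0.342, Hint2 at 0.466 and Hspa5 at 0.5 (edgeR adjusted p). DESeq2 called 81 genes (1.07%), 52 higher and 29 lower, including all 6. Leaving out WT replicate 3 gave 98 calls, and leaving out WT replicates 1 to 4 gave 218. There were 2 when WT replicate 2 was left out, and 3 for WT replicate 5 or KO replicate 3. Each of the 6 was among the 98 and among the 218.

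The cell cycle lists had medians from -0.11 to 0.20. The 10 rule genes had log2 fold changes from -0.14 to 0.34 with a median of 0.08, and 0 of 10 passed, but the rule chose cells on these genes. The entry and exit list had a median of 0.12 with 19 of 24 positive, the kinetochore list 0.15 with 18 of 24, the spindle list 0.20 with 21 of 25, and the cytokinesis list 0.14 with 11 of 14. Over all genes the median was -0.02, with 3425 of 7560 positive. These 4 lists rose with M among the members, so they are no readout apart from the rule. The entry and exit list, for instance, summed to 1749.6 CPM at M of 3 to 4 and 4338 CPM at 10 or more. The part of M in their fold changes was not tested. In the replication list the median was 0.04 over 33 genes, in the chromosome structure list 0.00 over 20, in the list of cell cycle transcription regulators -0.11 over 12, and in that of G1 cyclins and CDK inhibitors 0.18 over 12. The replication gene with the largest fold change, Pcna, was named after its values were seen: 136, 155 and 287 CPM in WT against 238, 261 and 378 CPM in KO, with a log2 fold change of 0.73 (SE 0.15, edgeR adjusted p = 0.0566). WT replicate 7 alone lay inside the KO range.

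Of the muscle lists, sarcomere genes had a median of -0.02 over 23 genes, calcium-handling genes -0.08 over 14 and atrial genes 0.00 over 10, with 0 called. The compact wall list had a median of -0.11 over 10 genes, the trabecular list -0.20 over 4, and the cardiac transcription factors -0.05 over 13. Growth signalling genes were at 0.02 over 14, glycolysis genes at -0.07 over 19, mitochondrially encoded genes at 0.20 over 7, and immediate early and heat shock genes at 0.18 over 24. The nuclear-encoded respiratory chain had a median of -0.15 with 8 of 53 positive and 0 called. Among markers of other cells 0 were called. Over the members, 12 fibroblast markers summed to 567 to 1219 CPM in WT replicates 1 to 4, 304 to 431 in WT replicates 5 to 7 and 230.3 to 714 in KO. The 10 erythroid markers summed to 793 to 26751 CPM in WT and 688 to 6635 CPM in KO, with a median log2 fold change of -2.07 over the 6 tested. The endothelial markers summed to 89.9 to 371 CPM in WT and 68.8 to 403 CPM in KO, the epicardial to 59.9 to 177 and 89.4 to 148, the mural to 188 to 279 and 161 to 298, and the leukocyte to 17.3 to 244 and 19.7 to 87.3. Among all these markers 1, an epicardial one, was at 0 in members. The part of this RNA in the 6 calls was not tested gene by gene. Without members that held 3 or more UMIs of other cells, 5 genes passed, 4 of them among the 6. Erythroid UMIs were not counted there, so erythroid RNA was not removed.

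The same comparison in the depth-matched M = 0 cells gave 7 of 6336 genes (0.11%), and 31 (0.489%) with DESeq2; an unadjusted p under 0.05 was reached by 727 (11.5%). Higher in KO were Ier3, an immediate early gene, at 0.80 (edgeR adjusted p = 0.0276), Arid5b at 0.86 (0.0287), the stress-response factors Atf4 at 0.64 (0.0295) and Atf3 at 0.91 (0.03), and Hspa5 at 0.70 (0.0295). Lower were Zfp428 at -1.05 (0.0413) and Agrn, agrin, an extracellular matrix proteoglycan, at -0.85 (0.0429). Ier3 and Atf3 are 2 of the 24 tested genes of the immediate early and heat shock list. Hspa5 was called in both cell sets. With a flow cell term, which rests on WT replicate 5, its log2 fold change in M = 0 cells was 0.45 (SE 0.29). That of Atf4 was 0.32 (SE 0.26). Those of Ier3, Arid5b and Atf3 were 0.96, 1.48 and 1.32, and those of Agrn and Zfp428 -0.84 and -0.82. Leaving out WT replicate 3 gave 36 calls and leaving out WT replicate 4 gave 13. The lowest count was 1, when KO replicate 7 was left out. It was 2 for WT replicate 6, 3 for WT replicate 5 or KO replicate 2, and 4 for KO replicate 5 or 6. With WT replicates 1 to 4 all left out 43 genes were called, 4 of them among the 7, while Agrn, Atf4 and Hspa5 no longer passed (edgeR adjusted p = 0.056, 0.0548 and 0.0533). A flow cell term left 0. Leaving out 1 library in turn, the call was kept in 15 of 15 fits for Ier3, 13 for Arid5b, 12 for Atf4 and for Hspa5, 7 for Atf3, 6 for Agrn and 5 for Zfp428.

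Whether the KO effect differed between mitotic and M = 0 cells was tested with both sets in a single model. Of 8586 genes, 0 passed with edgeR and 0 with DESeq2, with up to 3 in fits that left out 1 library (WT replicate 6), while 416 (4.85%) had an unadjusted edgeR p under 0.05. For Hspa5 the difference of the log2 fold changes was 0.00 (SE 0.08). For Gadd45b it was 0.41 (SE 0.13, unadjusted p = 0.00243, edgeR adjusted p = 0.95), from 0.78 in mitotic and 0.43 in M = 0 cells as fitted separately. The lowest adjusted p was that of the imprinted long noncoding RNA Meg3, at -0.62 (SE 0.13, edgeR adjusted p = 0.0621). Counts of these libraries were simulated with 200 changed genes and no litter or flow cell effect. This model recovered 53.0% of differences of 2-fold and 21.0% of differences of 1.5-fold, with 5 and 3 false calls. In the comparison of mitotic cells between genotypes, 80.0% and 24.5% were recovered, with 13 and 4 false calls. With 200 changed genes an adjusted p of 0.05 is easier to reach than with few, so recovery in the data may be lower.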

How the data were processed

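Drop-seq UMI counts per gene and barcode, deposited by the authors for 15 libraries of whole hearts, were used as whole numbers without normalization. The submitters' processing notes name the tools bcl2fastq (version 2.17) and Seurat (version 2.1) and mm10 as genome build, without roles. Members and gene lists were chosen with earlier results of these data known. Counts were summed per library and cell set. Genotypes were compared with edgeR 4.0.16 (quasi-likelihood, TMM, filterByExpr, all 15 libraries, no covariates, R 4.3.3), and DESeq2 1.42.0 was an alternative. Shares were compared with exact permutation tests over libraries (scipy 1.17.1). Cells were thinned at random without replacement. Scrublet was run with scanpy 1.11.5. The labels call some libraries biological replicates, but the embryos behind each are not given, so p-values measure the spread between these libraries. Replicate numbers come from the titles; the description of WT replicate 4 carries the number 3. Named genes were all those past an adjusted p of 0.05, the rule genes, the 15 highest and 10 lowest ratios against M = 0 cells, and members of the 27 lists. Scripts of the fits were tested on simulated data with 200 changed genes. Promoter sequences come from RefSeq, and all 10 rule genes matched by symbol. Alternatives covered the depth of thinning, the limits of the rule, doublet scores, RNA of other cells, flow cell, litter, filters and left-out libraries.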

Additional observations from a re-analysis of the deposited data

Results flagged for a closer look

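In 4 values a single library lay apart from the rest of its group, by a gap that was large against the group's whole range (Dixon's 95% criterion, 45 groups looked at, of which chance gives about 1 in 20). The median depth of members was 2254 UMIs in KO replicate 6 and 1601 to 1794 in the other KO libraries. Hint2 in mitotic cardiomyocytes was at 117 CPM in KO replicate 1 and at 161 to 180 CPM in the other KO libraries. Pcna in mitotic cardiomyocytes was at 287 CPM in WT replicate 7 and at 136 to 178 CPM in the other WT libraries. LacZ was at 62.8 CPM in the members of KO replicate 3 and at 3.83 to 28.0 CPM in the other KO libraries.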

How the results depend on the processing

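The share of mitotic cells in KO against WT was 1.14 points, 5.05 after thinning to 1500 UMIs and -0.201 with M of at least 2. It was 3.65 without WT replicates 1 to 4, 2.86 with at least 500 genes and 2.37 with M of at least 5. The thinned difference was 4.58 (exact permutation p = 0.00404) with M of at least 5. Over litters the thinned difference was 4.33, but with 4 WT and 3 KO litters that test cannot give a p under 0.05. The thinned difference of 5.05 lost its unadjusted p under 0.05 at 1000 UMIs (2.23) and at 2000 UMIs (1.39). The same held with M of at least 2 (4.18) and with a 5% cardiomyocyte limit (4.85). It also held in 2 settings chosen after seeing the data: the share expected over all draws (4.22) and without cells holding other cells' RNA (4.15). The trabecular-type difference of -3.38 lost its unadjusted p under 0.05 with M of at least 2 (-2.68) and with the 5% limit (-1.94). Between alleles the difference of 0.246 was -1.94 after thinning. Without 1 library in turn, the ranges were 0.132 to 2.51 for the share, 3.95 to 5.79 for the thinned share, 149 to 319 for the rule-gene level, -3.98 to -2.91 for the trabecular-type difference (chosen after seeing the data) and -1.15 to 1.53 for the alleles, with the sign turned without KO replicate 1 (-1.15) and without KO replicate 8 (-1.05). The cause was not tested.

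Genes called in mitotic cells numbered 6, against 81 with DESeq2, 27 with no filter, 0 with flow cell in the model, 218 without WT replicates 1 to 4, 3 with counts summed per litter and 10 with M of at least 2, and 2 to 98 without 1 library. In M = 0 cells they numbered 7, against 31 with DESeq2, 37 with no filter, 0 with flow cell, 43 without WT replicates 1 to 4, and 1 to 36 without 1 library. For the difference between the cell sets they numbered 0, against 9 with no filter, 2 with the 3 nearest M = 0 cells, and 0 to 3 without 1 library. Same-numbered libraries had correlations of -0.40 to 0.11 and 0 of 7 correlated best with its own number, so the numbers do not pair the libraries. With the replicate block, the share difference was 0.562 (p = 0.672), the thinned 4.54 (p = 0.0156, exact permutation of signs over pairs), the level 192, and the calls 4 in mitotic cells, with 2 of the 6 (Gm10076 and Pgls) kept, and 4 in M = 0 cells, with 0 of the 7 kept. In simulated counts with 200 changed genes, 24.5% of 1.5-fold and 80.0% of 2-fold changes were recovered in the comparison of mitotic cells.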
